A study of Mus musculus with 12 samples.

Results

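Brown fat effector genes other than Ucp1 were examined in cultured murine brown adipocytes that had met the organophosphate insecticide chlorpyrifos (CPF) for 4 h. The members were the 7 genes Otop1, Elovl3, Fabp3, Cidea, Letmd1, Pank1 and Dio2, taken by their symbols from the deposited table. Of these, 6 were among the 14775 genes of that table, and Dio2 had no row there. Genes with a mean of at least 10 normalized counts over all libraries were tested, which left 5 of the 6 members (Fabp3 had a mean of 8.54) among 13531 genes.

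The cells were TMCON, a single immortalized line of murine brown preadipocytes, which had been induced for 2 days and kept with triiodothyronine and insulin for 7 days before treatment. All wells were then placed in Krebs-Ringer buffer with fatty-acid free albumin. The CPF group received 1 pM CPF and the vehicle group received dimethyl sulfoxide (DMSO), each for 4 h and each with 6 libraries, numbered as replicates 1 to 6. Neither group carried a transgene or a deletion that the labels name. The paper describes making its immortalized lines with an SV40 retrovirus, from FVB/N mice or from Ucp1 reporter mice. It does not say which of these gave TMCON. No source states if a replicate was a culture of its own or a well of a shared one, so each p-value speaks only for the spread of these 12 libraries, and that spread may be technical.

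Brown adipocytes burn fatty acids in their mitochondria and release the energy as heat, mainly through the uncoupling protein Ucp1, and noradrenaline acting on beta-adrenergic receptors switches this program on. Genes induced beside Ucp1 serve the same cell in other ways: they supply and store the fatty acids, maintain mitochondrial function, move protons, make coenzyme A for fatty acid activation and raise local thyroid hormone. They are widely measured in mouse brown fat, where cold exposure raises Cidea, Dio2, Elovl3 and Fabp3.

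The libraries held 7875502 to 14166615 reads assigned to genes. Vehicle replicate 2 and CPF replicate 1 stood apart from the others, with scores of 31.5 and 33.0 on the first principal component (29.1% of the variance) against -13.7 to 6.12 for the other 10 libraries. All 8 mature adipocyte markers were in the table. Their summed normalized count was 61375 in CPF replicate 1, 91981 to 104273 in the other 5 CPF libraries and 74455 to 93472 in the vehicle libraries. Most of the sum in CPF replicate 1 was Fabp4 (20541) and Lpl (21068). Adipoq, Plin1, Fabp4, Cidec, Lpl, Retn and Cfd were each lowest in that library. Pnpla2 was not, at 8847 there against means of 8540 in vehicle and 10458 in CPF. Of 10 preadipocyte and fibroblast markers 8 were in the table (Dpp4 and Pi16 were not), with a sum of 75875 in vehicle replicate 2, 49651 in CPF replicate 1 and 36783 to 47360 in the other 10. Most of this sum was collagen, with Col1a1 at 37993 and Col3a1 at 26917 in vehicle replicate 2. Pdgfra, Pdgfrb and Ly6a were also above their vehicle means there. Dlk1 (316 against a vehicle mean of 849), Thy1 (59.0 against 72.1) and Cd34 (12.8 against 13.9) were below. All 8 brown adipocyte markers, Prdm16, Ebf2 and Zic1 among them, were in the table. Their sum, in which Ucp1 is counted, was highest in vehicle replicate 2 (10285 against 5886 to 8482 in the other vehicle libraries) and lowest in CPF replicate 1 (4096 against 5254 to 6687 in the other CPF libraries). Ucp1 alone made 5204 of it in vehicle replicate 2. Ebf2, Ppargc1a, Cox8b, Zic1 and Lhx8 were also highest there, while Prdm16 (234 against a vehicle mean of 277) and Cox7a1 (1366 against 1454) were not. In CPF replicate 1, Ucp1, Prdm16, Ebf2, Ppargc1a and Cox8b were lowest, while Cox7a1 and Lhx8 were not. Zic1 was 135 there, against a CPF mean of 128. Of 6 skeletal muscle markers the defining Myod1, Myf5, Myog and Ckm had no row. Of the others, Mb, the myoglobin gene, had means of 5389 normalized counts in vehicle and 6790 in CPF (3264 in vehicle replicate 2 and 3607 in CPF replicate 1), and Acta1 had 23.3 and 25.3. None of 4 endothelial markers had a row. Of 4 macrophage markers Ptprc and Adgre1 had none, while Cd68 had means of 132.3 and 138.8 and Csf1r of 5.86 and 7.21. In libraries made from whole wells, fewer cells of a type and less RNA per cell cannot be told apart.

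No member passed the test between CPF and vehicle, and 1, Otop1, had an unadjusted limma p under 0.05. The members were chosen with earlier results of these data known, which an unadjusted p does not allow for. Otop1, a proton channel of the plasma membrane, had the largest difference of the 5 tested members and was lower with CPF, at 0.601 of the vehicle level. Elovl3 had a smaller negative difference that did not pass, and Cidea, Letmd1 and Pank1 lay close to 0. By limma on log2(normalized count + 1) with Benjamini-Hochberg adjustment, 0 of 13531 genes passed an adjusted p of 0.05, that is 0% in either direction (0% higher, 0% lower). Before adjustment, at a p under 0.05, 375 genes (2.77%) were higher and 615 (4.55%) lower with CPF. Among the 5 members the corresponding counts were 0 higher and 1 lower. DESeq2 on the recovered reads passed 0 genes higher and 6 lower, and edgeR passed 0 in both directions. With vehicle replicate 2 and CPF replicate 1 left out, limma passed 25 genes higher and 29 lower, of which 0 were members. The median log2 fold change of the 5 members was -0.073 with all libraries and 0.082 without these 2, beside medians over all genes tested of -0.0015 and -0.0012. Of the 13531 genes tested, 6826 had a negative log2 fold change with all libraries and 6826 without these 2.

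**Figure D1:**
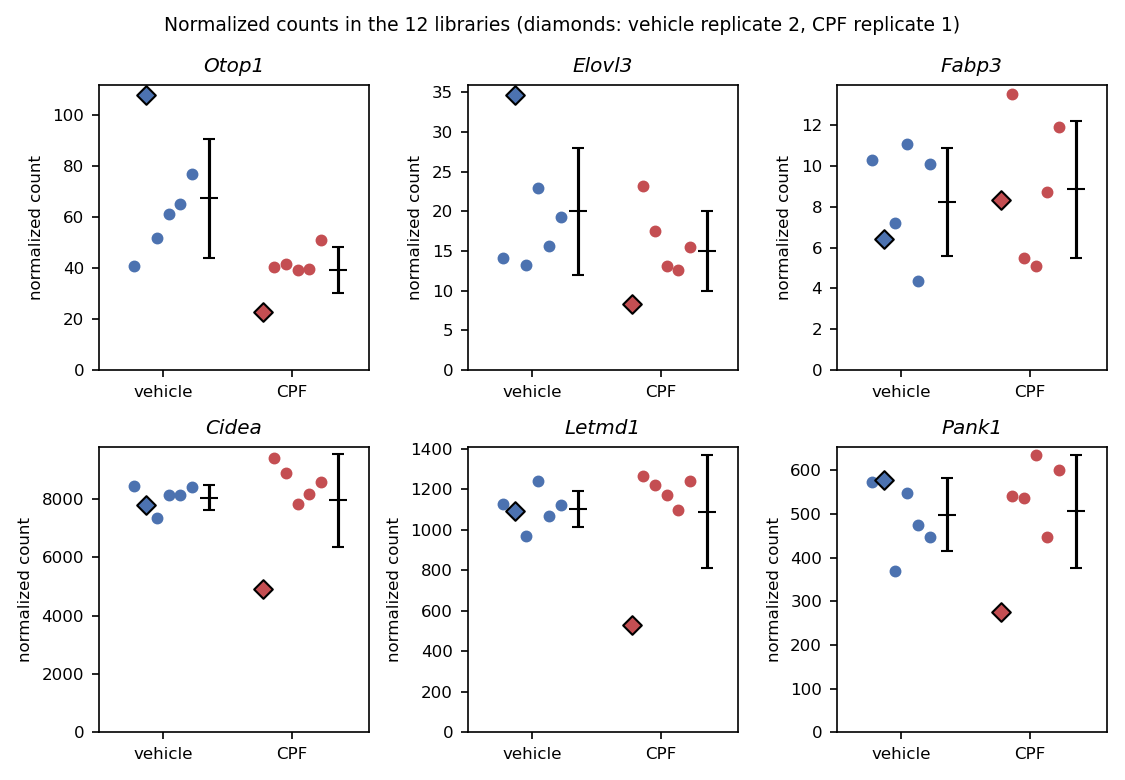
Normalized counts (y axes, each starting at 0) of the 6 members in each of the 6 vehicle and 6 CPF libraries, one point per library, with group mean and SD as the bar to the right of the points. Diamonds mark vehicle replicate 2 and CPF replicate 1. The diamond of CPF lies lowest among the 12 libraries for Otop1, Elovl3, Cidea, Letmd1 and Pank1, and the diamond of vehicle lies highest for Otop1 and Elovl3.

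Otop1 encodes a channel that lets protons cross the plasma membrane, and in the mouse it is known from the vestibular organ, where it is needed to form otoconia, from acid-sensing taste cells, and from brown fat. Otop1 (ENSMUSG00000051596) lies at chr5:38275972-38304217 of GRCm38 on the plus strand. Its normalized counts in the vehicle libraries ran from 41.0 to 107.8 with a median of 63.3. In the CPF libraries they ran from 23.0 to 51.2 with a median of 40.1. Vehicle replicate 2 was the highest and CPF replicate 1 the lowest of the 12, 4 of the 6 CPF libraries lay below every vehicle library, and the groups overlapped. In each of the 6 CPF libraries the value was under the vehicle mean of 67.3 ± 23.3 (SD, n = 6), and the CPF mean was 39.2 ± 9.13 (SD, n = 6). The vehicle mean also lay above 4 of the 6 vehicle libraries. The log2 fold change was -0.74 (SE 0.22, 95% interval -1.20 to -0.28), with an unadjusted p of 0.00379 and an adjusted p of 0.569 by limma. Ordered by p, Otop1 was the 88th of the 13531 genes tested and the 65th of those with a negative log2 fold change. A two-sided exact permutation test over the 924 arrangements of the libraries gave an unadjusted p of 0.00866, where 0.00216 is the smallest it can give.

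These values rested on few reads, 22 to 84 per library and 643 in all. The coefficient of variation among vehicle libraries was 34.6%, against 12.4% expected from counting alone, and among CPF libraries 23.3% against 15.4%. Over all 6 libraries of a group the spread was thus larger than counting error in both groups. In CPF this excess rested on replicate 1. The mean and SD without that library were 42.5 and 4.97, against 39.2 and 9.13 with it. Without CPF replicate 1 the log2 fold change of Otop1 was -0.59 (limma, adjusted p = 0.141), without vehicle replicate 2 it was -0.59 (adjusted p = 0.819), and without both it was -0.45 (SE 0.16, adjusted p = 0.195). Its direction was the same in each of 25 alternative analyses, in which the log2 fold change ran from -0.86 to -0.45 and the adjusted p from 0.0843 to 1.00. Some of these could not move it from -0.74: other filters, the replicate number as a block, and a term for replicates 1 to 3 against 4 to 6. The fits that left out libraries spanned the whole range from -0.86 to -0.45. The exact permutation p without both libraries was 0.0317, where 0.00794 is the smallest that 252 arrangements allow. The sum of preadipocyte and fibroblast markers, most of it Col1a1 and Col3a1, was likewise highest in vehicle replicate 2. Dlk1, of the same list, was lowest there. The part of these in the difference of Otop1 was not tested.

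Ucp1 itself, which carries protons across the inner mitochondrial membrane, had a log2 fold change of -0.75 (SE 0.25) with a limma adjusted p of 0.611, or -0.48 without both libraries that stood apart. Each CPF library fell short of the vehicle mean of Ucp1, as did 4 of the 6 vehicle libraries. The value of Ucp1 in vehicle replicate 2 was 5204 normalized counts, the highest of the 12, and that library was also highest for Otop1. Of the other proton channels listed, Otop2 and Otop3 had no row. Hvcn1, the voltage-gated proton channel, had means of 131.6 and 140.7 normalized counts in vehicle and CPF and a log2 fold change of 0.077 (limma, adjusted p = 0.897), which was 0.19 without CPF replicate 1.

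The 250 bases before the start of transcription are given here for Otop1, which had the largest difference, and for Letmd1 and Pank1, which varied together across libraries as described below. They come from RefSeq on GRCm38.p6, are written 5′ to 3′ on the strand of the gene, and hold no exon of the GENCODE annotation. Capitals mark matches on either strand to 1 of 4 motifs: TGACGTCA, the full cAMP response element, TGACG, its shorter form, which lies within the full one, AGGTCA, the recognition site of nuclear receptors such as those for thyroid hormone and peroxisome proliferators, and TATAAA, the TATA box. The Otop1 window lies on chromosome 5, chr5:38277154-38277403 on the plus strand, in an intron of the transcript of that gene that starts farthest upstream. The Letmd1 window is chr15:100468761-100469010 on the plus strand, and that of Pank1 is chr19:34879456-34879705 on the minus strand.
Otop1: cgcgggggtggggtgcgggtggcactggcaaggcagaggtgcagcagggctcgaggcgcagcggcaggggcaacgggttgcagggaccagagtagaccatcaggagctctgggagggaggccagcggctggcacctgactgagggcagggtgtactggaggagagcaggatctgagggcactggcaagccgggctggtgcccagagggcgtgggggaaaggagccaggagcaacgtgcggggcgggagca
Letmd1: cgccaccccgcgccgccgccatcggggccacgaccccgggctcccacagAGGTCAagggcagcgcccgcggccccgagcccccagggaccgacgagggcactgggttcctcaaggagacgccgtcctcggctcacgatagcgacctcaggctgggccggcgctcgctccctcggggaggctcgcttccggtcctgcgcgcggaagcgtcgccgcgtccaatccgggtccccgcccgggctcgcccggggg
Pank1: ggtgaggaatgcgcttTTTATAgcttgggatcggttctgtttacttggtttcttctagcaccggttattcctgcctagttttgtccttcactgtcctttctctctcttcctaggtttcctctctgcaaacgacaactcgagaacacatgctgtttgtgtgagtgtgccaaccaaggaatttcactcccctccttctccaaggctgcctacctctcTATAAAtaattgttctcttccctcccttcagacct

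The 4 motifs were absent from the Otop1 window. The Letmd1 window held AGGTCA, beginning 201 bases before the start, a motif found in 14.0% of 32851 windows of the same length. The Pank1 window held TATAAA on the strand of the gene 35 bases before the start and again on the opposite strand 234 bases before it, and 12.4% of all windows held that motif. RefSeq gives another start for Pank1, whose window (chr19:34877918-34878167, minus strand, GC content 52.8%) held none of the 4 motifs. GC content was 70% for Otop1, 77.6% for Letmd1 and 46.4% for the Pank1 window printed, beside a median of 52.4% over all windows. Of the windows not printed, that of Dio2 held TGACGTCA 95 bases before the start, a motif in 1.55% of all windows. It also held TATAAA 30 bases before the start. The Fabp3 window held TGACG 149 bases before the start, a motif in 17.8% of all windows. A match, or its absence, describes only these letters.

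Elovl3 encodes an elongase of very long chain fatty acids whose transcript rises in mouse brown fat in the cold. The gene (ENSMUSG00000038754) lies at chr19:46131897-46135694 on the plus strand. It was scarce in these cells, with 8 to 27 reads per library. Vehicle libraries ran from 13.2 to 34.7 normalized counts with a median of 17.5, and CPF libraries from 8.35 to 23.2 with a median of 14.3. The groups overlapped, with the highest value in vehicle replicate 2 and the lowest in CPF replicate 1, the same libraries as for Otop1. The log2 fold change was -0.37 (SE 0.26, 95% interval -0.92 to 0.18; limma, adjusted p = 0.770; exact permutation p = 0.219). It was -0.20 without vehicle replicate 2, -0.23 without CPF replicate 1 and -0.058 without both, so that these 2 libraries together set most of its size.

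Elovl3 belongs to the fatty acid elongation machinery, of which 12 of 13 listed genes were in the table and tested. None passed in either direction. Of the 11 others, 5 had a positive and 6 a negative log2 fold change, with a median of -0.0037, against 8 positive and 3 negative with a median of 0.031 without the 2 libraries that stood apart. Among all 13531 genes tested, 6826 were negative in either setting. Hacd4, a dehydratase of the elongation cycle, had -0.38 (limma, unadjusted p = 0.0144, adjusted p = 0.611), and Elovl6, which lengthens palmitate to stearate, had -0.21 (adjusted p = 0.739), or -0.12 without both.

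Fabp3, the fatty acid binding protein of heart and muscle cytosol, had 5 to 14 reads per library and was not tested by limma. The gene (ENSMUSG00000028773) lies at chr4:130308595-130315463 on the plus strand. Its vehicle libraries ran from 4.35 to 11.1 normalized counts with a median of 8.65, and its CPF libraries from 5.09 to 13.5 with a median of 8.53. The ranges overlapped, with CPF 0.076 higher than vehicle in mean log2 and an exact permutation p of 0.792. The coefficient of variation, 32.2% in vehicle and 38.1% in CPF, was close to the 35.4% and 32.7% that counting alone gives, so a difference within that spread was not detectable at this depth. The level is also uncertain because 29.2% of the stretches of 50 bases in its transcript also occur in the pseudogene Fabp3-ps1. Of the 8 other fatty acid binding proteins listed, 2 were tested, Fabp4 and Fabp5, the abundant form of adipocytes and a more widely made one. Their log2 fold changes were 0.066 (limma, adjusted p = 0.918) and 0.015 (adjusted p = 0.980), or 0.18 and 0.061 without CPF replicate 1.

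Cidea encodes a protein of the lipid droplet surface that helps droplets fuse. The gene (ENSMUSG00000024526) lies at chr18:67343604-67367785 on the plus strand. Its normalized counts ran from 7333 to 8462 in vehicle, with a median of 8136, and from 4906 to 9404 in CPF, with a median of 8375. CPF replicate 1 alone lay below the vehicle range, 3 CPF libraries lay above it, and the groups overlapped. Vehicle libraries varied little, with a mean of 8047 ± 420 (SD, n = 6), while the CPF mean was 7964 ± 1594 (SD, n = 6), or 8576 ± 608 (n = 5) without replicate 1. The log2 fold change was -0.043 (SE 0.12, 95% interval -0.31 to 0.22; limma, adjusted p = 0.952; exact permutation p = 0.939). It became positive without CPF replicate 1, at 0.091 (SE 0.057, adjusted p = 0.447), and without both libraries that stood apart, at 0.082 (adjusted p = 0.551).

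All 9 listed genes of the CIDE family and the lipid droplet coat were tested and none passed. Of the 8 besides Cidea, 4 had a positive and 4 a negative log2 fold change over all libraries, with a median of -0.0035. Without the 2 libraries that stood apart all 8 were positive, with a median of 0.15, and none passed. In that setting 6826 of all 13531 genes tested were negative. The sum of mature adipocyte markers, Plin1 and Cidec among them, also lay high in the CPF libraries other than replicate 1. It was 91981 to 104273 there and 74455 to 93472 in vehicle without replicate 2. The part of this in the shift was not tested. Cidec, the form that enlarges droplets in white and brown fat, had 0.14 with all libraries (limma, adjusted p = 0.841) and 0.26 without both (adjusted p = 0.0536). Cideb had 0.17 (adjusted p = 0.791), or 0.29 without CPF replicate 1, and Plin5, which ties droplets to mitochondria, had -0.15 (adjusted p = 0.866), which was -0.0089 without CPF replicate 1 and 0.057 without both.

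Letmd1 encodes a protein of the inner mitochondrial membrane that mouse brown fat needs for heat production. It is ENSMUSG00000037353, at chr15:100469023-100479164 on the plus strand. Its vehicle libraries ran from 969 to 1241 normalized counts with a median of 1110. Its CPF libraries ran from 531 to 1268 with a median of 1197. As for Cidea, CPF replicate 1 was the only CPF library below the vehicle range, and the other 5 lay at 1100 or more, 2 of them above that range. The log2 fold change was -0.073 (SE 0.18, 95% interval -0.46 to 0.32; limma, adjusted p = 0.947; exact permutation p = 0.963), and 0.12 (SE 0.061, adjusted p = 0.325) without CPF replicate 1. Of its relatives, Letm1, which exchanges cations across the same membrane, had -0.17 (adjusted p = 0.838), which fell away to -0.015 without CPF replicate 1 and turned to 0.073 without both libraries that stood apart. Letm2 had 0.076 (adjusted p = 0.883), or 0.042 without CPF replicate 1.

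Pank1 encodes pantothenate kinase, the enzyme of the first step of coenzyme A synthesis. It is ENSMUSG00000033610, at chr19:34806940-34879455 on the minus strand. Vehicle libraries ran from 369 to 578 normalized counts with a median of 512, and CPF libraries from 276 to 634 with a median of 539. The ranges overlapped, with CPF replicate 1 lowest and 2 other CPF libraries above every vehicle library. The log2 fold change was -0.0094 (SE 0.18, 95% interval -0.40 to 0.38; limma, adjusted p = 0.995; exact permutation p = 0.963), and 0.16 (adjusted p = 0.537) without CPF replicate 1. Among the first 3 replicates alone it was -0.20 and among replicates 4 to 6 alone 0.18. Neither passed, and the difference between these sets was not tested. Of the 12 other tested genes of coenzyme A synthesis and breakdown, 4 were positive and 8 negative, with a median of -0.0074, and none passed. Without the 2 libraries that stood apart the balance turned to 10 positive and 2 negative, with a median of 0.053. Over all 13531 genes tested there, 6826 were negative. Slc25a16, a mitochondrial carrier linked to coenzyme A, had 0.12 (adjusted p = 0.757), Ppcs, the enzyme that joins cysteine to phosphopantothenate, had 0.12 (adjusted p = 0.840), and Slc5a6, which takes up pantothenate, had -0.10 (adjusted p = 0.854), which was -0.0038 without CPF replicate 1 and 0.050 without both.

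**Figure D2:**
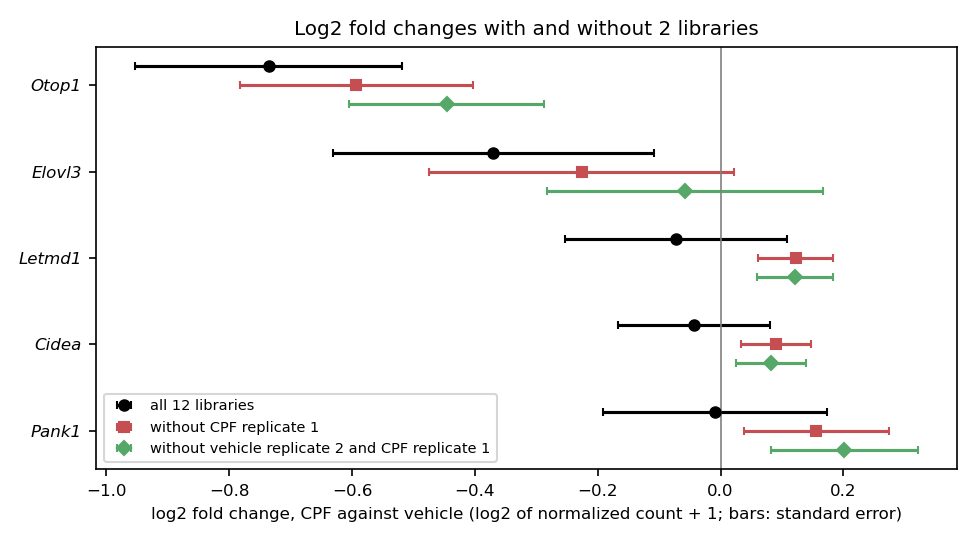
Log2 fold changes of CPF against vehicle (x axis, log2 of normalized count + 1) for the 5 tested members, with standard errors as bars, from limma fits of all 12 libraries, without CPF replicate 1, and without both vehicle replicate 2 and CPF replicate 1. Otop1 runs from -0.74 over -0.59 to -0.45, while Cidea, Letmd1 and Pank1 go from below 0 to 0.082, 0.12 and 0.20.

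CPF replicate 1 was low for 5 of the 6 members. Against the median of the other 5 CPF libraries it was lower by 2.30-fold for Letmd1, 1.96-fold for Pank1, 1.77-fold for Elovl3, 1.75-fold for Cidea and 1.73-fold for Otop1. These drops were large among genes in general, as only 1.49% of the 13531 tested genes fell farther in that library than Letmd1, and 4.66% farther than Otop1. For Ucp1 the drop was 1.26-fold, with 19.9% of genes falling farther. Vehicle replicate 2 was not low for these genes. It exceeded the median of the other 5 vehicle libraries by 2.14-fold for Elovl3, 1.75-fold for Otop1, 1.22-fold for Pank1 and 2.70-fold for Ucp1, and was lower by 1.04-fold for Cidea and 1.03-fold for Letmd1. The sum of mature adipocyte markers was also lowest in CPF replicate 1, as given above, and its part in these values was not tested.

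Compared per kb of exon, the members covered a wide range of levels. Cidea was the highest, with 7217 ± 376 normalized counts per kb in vehicle (SD, n = 6), 27th of 14761 genes. Letmd1 followed at 228 ± 18.3 per kb, above 82.9% of genes, then Pank1 at 60.3 ± 10.0, above 51.4%, and Otop1 at 19.6 ± 6.77, above 27.6%. Elovl3 at 10.1 ± 4.08 and Fabp3 at 10.0 ± 3.22 per kb could not be placed in order, as their spreads overlapped. For the neighbours above them the ranges of Cidea, Letmd1 and Pank1 did not touch one another or that of Otop1, and that of Otop1, 11.9 to 31.3, overlapped those of Elovl3 and Fabp3. In CPF the order of Cidea, Letmd1 and Pank1 was the same, with means of 7143, 225 and 61.3 per kb. Otop1 at 11.4, Fabp3 at 10.7 and Elovl3 at 7.62 per kb had overlapping ranges there and could not be placed in order. Ucp1 stood at 1742 ± 818 per kb in vehicle and 974 ± 205 in CPF, between Cidea and Letmd1. Dividing by the longest transcript in place of all exon bases moved Letmd1 to 379 per kb in vehicle and 373 in CPF, and left the order of Cidea, Letmd1 and Pank1 as it was.

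**Figure D3:**
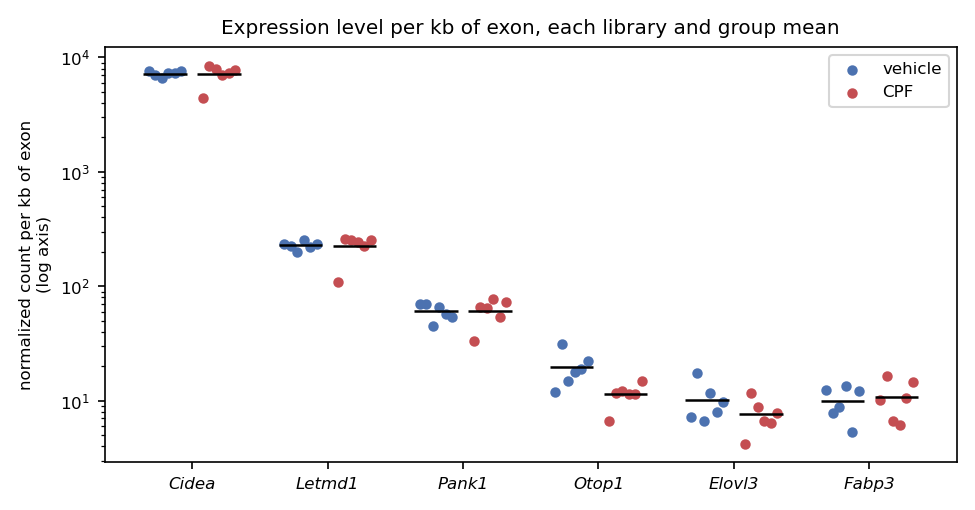
Normalized count per kb of exon (y axis, log scale) of the 6 members in each library, with vehicle and CPF side by side and a line at each group mean. Cidea, at 7217 per kb in vehicle, lies far above Letmd1 at 228 and Pank1 at 60.3, and the points of Otop1, Elovl3 and Fabp3 overlap.

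Some pairs of members varied together over the 12 libraries, but no pair passed after adjustment without the 2 libraries that stood apart. How often other pairs of genes reach such an r was not tested. Of 15 pairs, 4 had an adjusted p under 0.05 for Pearson's r over 12 libraries (permutation test of log2 values, adjusted over the 15). Cidea and Letmd1 had r = 0.97 (permutation p = 0.00015, adjusted p = 0.00225; Spearman rho 0.81, p = 0.00219, adjusted p = 0.0328). Letmd1 and Pank1 had r = 0.87 (permutation p = 0.00069, adjusted p = 0.00517; rho 0.62, p = 0.0346, adjusted p = 0.173). Cidea and Pank1 had r = 0.80 (permutation p = 0.0110, adjusted p = 0.0414; rho 0.29, p = 0.354, adjusted p = 0.591). Otop1 and Elovl3 had r = 0.80 (permutation p = 0.00269, adjusted p = 0.0134; rho 0.70, p = 0.0141, adjusted p = 0.106). The largest r of Fabp3 with any other member was 0.16.

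A few libraries carried much of this, and they differed between pairs. First, r was taken without the 2 libraries farthest from the median of the first gene. It was 0.73 for Cidea and Letmd1 and 0.41 for Cidea and Pank1, both without CPF replicates 1 and 2. For Letmd1 and Pank1 it was 0.46, without CPF replicate 1 and vehicle replicate 3. For Otop1 and Elovl3 it was 0.36, without CPF replicate 1 and vehicle replicate 2. Without vehicle replicate 2 and CPF replicate 1, r over 10 libraries was 0.77 for Cidea and Letmd1 (permutation p = 0.00947, adjusted p = 0.0710) and 0.79 for Letmd1 and Pank1 (permutation p = 0.00579, adjusted p = 0.0710), and 0 of 15 pairs passed after adjustment. For Otop1 and Elovl3 it was 0.36 (adjusted p = 0.456) and for Cidea and Pank1 0.47 (adjusted p = 0.399), so that these 2 relations rested on the libraries that stood apart. With the group means taken out the same 4 pairs passed.

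**Figure D4:**
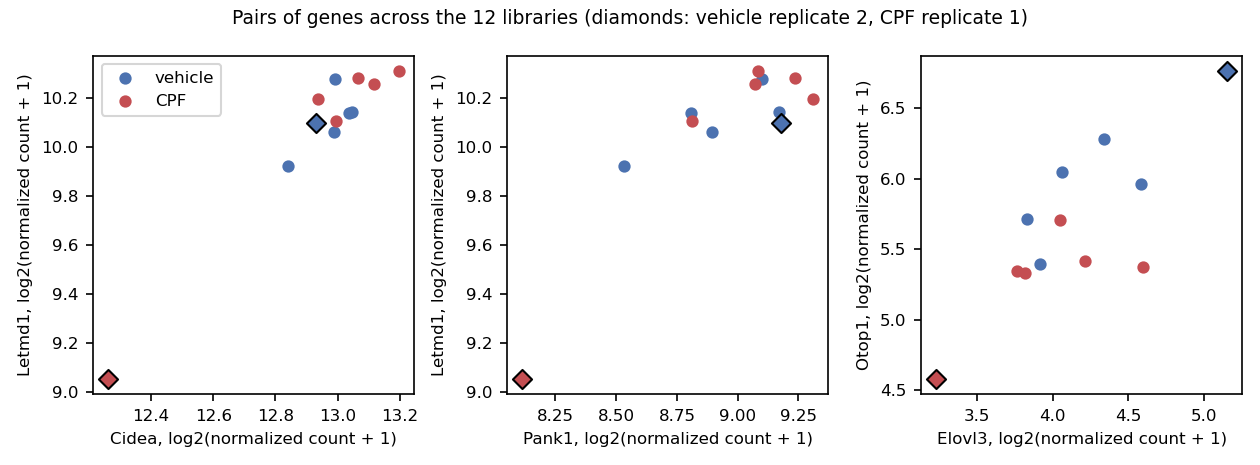
Log2(normalized count + 1) of Letmd1 against Cidea, Letmd1 against Pank1 and Otop1 against Elovl3, one point per library, with vehicle and CPF in different colours and diamonds for vehicle replicate 2 and CPF replicate 1. CPF replicate 1 lies at the lower left of each panel, and r over all 12 libraries was 0.97, 0.87 and 0.80.

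The genes whose values across the 12 libraries were most like those of each member are given as a description. For Cidea they were Grhpr (r = 0.99), Mdh2 (0.98) and Ldhb (0.97), and for Letmd1 Grhpr (0.99), Immt (0.99) and Ldhb (0.98). Grhpr reduces glyoxylate and hydroxypyruvate, Mdh2 is the mitochondrial malate dehydrogenase, Ldhb a subunit of lactate dehydrogenase and Immt a protein of the crista junctions. Over the 10 libraries without the pair that stood apart, r with Letmd1 was 0.96 for Ldhb, 0.95 for Immt and 0.92 for Grhpr. With Cidea it was 0.91 for Grhpr, 0.85 for Mdh2 and 0.85 for Ldhb. For Pank1 the genes were Gpd1l (0.97), Trmt2b (0.97) and 1700047M11Rik (0.97), with 0.93, 0.92 and 0.93 over the 10 libraries. For Otop1 they were Acss2, which activates acetate (0.93), Tbc1d1, a regulator of glucose transporter traffic (0.93), and Stard4, which carries cholesterol (0.92), with 0.77, 0.83 and 0.86 over the 10 libraries. For Elovl3 they were Hic2 (0.95), Trpm4 (0.95) and Mcm7 (0.94), with 0.89, 0.83 and 0.84 over the 10 libraries. For Fabp3, at its low counts, they were AC154276.3 (0.87), Plxdc2 (0.81) and Gm4149 (0.81), with 0.88, 0.82 and 0.80 over the 10 libraries.

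Dio2, which converts thyroxine to triiodothyronine, had no row and therefore no value, and the medium in which the cells matured contained triiodothyronine. Of 14 listed genes of thyroid hormone activation, transport and response 10 were in the table and 9 were tested. They had 6 positive and 3 negative log2 fold changes with a median of 0.043, and none passed. Among all 13531 genes tested, 6826 were negative. Hr, a corepressor that thyroid hormone induces, had means of 341 and 441 normalized counts in vehicle and CPF and a log2 fold change of 0.39 (limma, unadjusted p = 0.0241, adjusted p = 0.639), or 0.24 without the 2 libraries that stood apart. Klf9, a target of thyroid hormone and glucocorticoids, had 0.099 (limma, adjusted p = 0.786), or 0.038 without CPF replicate 1.

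Of 21 symbols listed for other brown fat genes, Ucp1 among them, 17 were tested. Gk and Gyk of that list name the same gene, which was tested as Gk. The log2 fold change was positive for 7 and negative for 10, and the median was -0.051. None passed. The balance and the sign of the median turned without the 2 libraries that stood apart, to 10 positive and 7 negative with a median of 0.036, and the median was 0.010 without CPF replicate 1 alone. Beside this, 6826 of all 13531 genes tested were negative with all libraries and 6826 without both. Pdk4, which inhibits pyruvate dehydrogenase, had the smallest p of these, with a log2 fold change of 0.30 (limma, unadjusted p = 0.00171, adjusted p = 0.569), and Cpt1b, the muscle and brown fat form of carnitine palmitoyltransferase, had -0.31 (adjusted p = 0.696), or -0.17 without both libraries that stood apart.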

How the data were processed

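RNA of TMCON brown adipocytes was sequenced with a kit that keeps strand. The authors used Trimmomatic for trimming, HISAT2 for alignment (GRCm38), htseq-count for reads per gene (reverse strand, minimum quality 10) and DESeq2 for normalization. Tool versions and the filter behind the table were not given in the sources used here. The signal that the authors deposited is a DESeq2-normalized count per gene and library. A further 12 columns of ratios, and 2 sheets of the authors' own comparisons (fold changes and p-values), were not used. Whole reads were recovered from all columns (100% of values within 0.01 read).

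Genes with a mean of at least 10 were compared with limma 3.58.1 (R 4.3.3; trend, robust, two-sided) on log2(value + 1), adjusted by Benjamini-Hochberg over all 13531 genes. Fold changes on this scale understate those of low genes. Dio2 had no row, so 15 pairs of members were correlated. Alternatives were count models on recovered reads (edgeR 4.0.16, DESeq2 1.42.0), TMM, other filters and pseudocounts, library weights, blocks and libraries left out. The exact permutation test without 2 libraries was added after seeing the data. Scripts were tested on simulated data. Exon lengths came from GENCODE M21 and promoters from RefSeq, where 5 of the 7 members were matched, without Elovl3 and Cidea. Named genes were all members, up to 3 tested genes with the smallest p per list, the 3 genes most like each member and Ucp1. The result of 1 listed gene is not given. The members and lists were chosen with earlier results of these data known.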

Additional observations from a re-analysis of the deposited data

Results flagged for a closer look

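Of 12 sets of 6 libraries checked (6 genes in each group), 2 held a library far from the others by Dixon's criterion, both times CPF replicate 1, at 4906 normalized counts for Cidea and 531 for Letmd1. Chance alone flags about 1 set in 20. The 2 flags were not independent, as they fell on the same library and Cidea and Letmd1 varied together (r = 0.97 over 12 libraries). Both values came from the library in which the mature adipocyte markers summed lowest, at 61375 normalized counts, and the part of that in them was not tested.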

How the results depend on the processing

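Otop1 and Elovl3 were lower with CPF in all 25 and 24 alternatives (log2 fold change -0.86 to -0.45 and -0.50 to -0.058), and no member passed in any. Other filters, the block and the term for replicates 1 to 3 against 4 to 6 could not change a log2 fold change or its sign. A minimum mean of 50 left no value for Elovl3, and Fabp3 was fitted only with no filter and with DESeq2. Cidea turned positive with library weights (0.038) and without both libraries that stood apart (0.082), Letmd1 likewise (0.053 and 0.12) and among replicates 4 to 6 only (0.035), and Pank1 in edgeR (0.026), DESeq2 (0.024), library weights (0.13), without both (0.20) and among replicates 4 to 6 only (0.18).
With each library left out in turn, log2 fold changes ran from -0.86 to -0.59 for Otop1, -0.50 to -0.20 for Elovl3, -0.097 to 0.091 for Cidea, -0.13 to 0.12 for Letmd1 and -0.093 to 0.16 for Pank1. Cidea and Letmd1 turned positive among these only without CPF replicate 1. Over all genes, 0 to 6 passed higher and 0 to 5 lower with CPF when 1 library was left out, the upper counts without CPF replicate 1. Counts of genes higher and lower were 3 and 19 with library weights, 25 and 29 without both libraries, and 8 and 14 among replicates 4 to 6 only, and DESeq2 gave 6 lower; the remaining alternatives gave 0. Without both libraries 0 pairs of members passed in correlation. With the replicate number as a block, which in this balanced design cannot move a log2 fold change, the standard error of Otop1 (log2 fold change -0.74) was 0.15 in place of 0.22 and its unadjusted limma p 0.000613 in place of 0.00379, with an adjusted p of 0.494. Values under the block were -0.37 for Elovl3, -0.073 for Letmd1, -0.043 for Cidea and -0.0094 for Pank1, and 0 genes passed. Libraries of the same number correlated by -0.21 to 0.26 and the labels do not pair them, and 1 of 6 correlated best with its own number. Depth limits Fabp3 and Elovl3 the most. The causes of these changes were not tested.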
